A study of Bos taurus with 9 samples.

Results

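Interferon receptors, their signalling factors, nucleic acid sensors and interferon response genes were examined in single bovine D8 blastocysts with and without *TEAD4*. The 39 genes were chosen by symbol, and 38 of them have a row among the 21512 genes of the deposited table, while *BST2* has none under that symbol. They comprise 5 genes of the receptors and the receptor kinase TYK2, 6 STAT and IRF factors, 4 sensors and adaptors and 24 response genes, 23 of them with a row. Values are TPM, the share of a library's transcripts that a gene makes up on a scale common to all libraries, and are divided by transcript length, so that levels of different genes can be set side by side.

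The table holds 5 WT and 4 *TEAD4* KO blastocysts, 1 library for each, named WT_1 to WT_5 and TE_1 to TE_4 (TE for *TEAD4*). All embryos were produced in vitro from slaughterhouse oocytes with the semen of a single bull and were collected whole on D8, so inner cell mass and trophectoderm were sequenced together. WT embryos came from oocytes injected with *Cas9* mRNA alone, and KO embryos from oocytes that also received a guide RNA against *TEAD4* and were found to carry only frame-disrupting alleles, which can differ between embryos. In such whole-embryo libraries, fewer cells of a type and less RNA per cell cannot be told apart.

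Type I interferons bind the receptor chains IFNAR1 and IFNAR2, whose kinases TYK2 and JAK1 activate STAT2. It joins IRF9, and the complex switches on response genes such as *ISG15*, *MX1* and the *OAS* and *IFIT* genes, many of which restrict viral RNA. Ruminants are known for a type I interferon of their own, interferon tau, which the trophectoderm secretes and which signals pregnancy to the uterus. Interferon gamma acts through a separate receptor made of IFNGR1 and IFNGR2.

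The number of genes above 0 TPM was between 14807 and 16678 in WT and between 14776 and 15375 in KO libraries, and 10 housekeeping genes were all above 0 in every library (lowest value 20.9 TPM). *TEAD4* mRNA was between 18.0 and 54.3 TPM in WT and between 12.5 and 42.8 TPM in KO libraries, overlapping values that do not show whether a transcript carries an indel. Of the markers checked, 6 trophectoderm, 4 inner cell mass and 4 hypoblast genes were all above 0 in every library. The summed trophectoderm markers were at 4013 to 17916 TPM in WT and 6585 to 12378 TPM in KO, the inner cell mass markers at 804 to 2098 and 1393 to 2215 TPM, and the hypoblast markers at 81.6 to 145 and 43.6 to 151 TPM. Nearly all of the trophectoderm sum came from *KRT8* and *KRT18*. *KRT8* was at 2721 to 11972 TPM in WT and 3993 to 8599 TPM in KO, and *KRT18* at 1108 to 5631 and 1485 to 4022 TPM. Most of the hypoblast sum was *GATA6*, at 77.6 to 93.6 TPM in WT and 29.3 to 146 TPM in KO. All 4 hypoblast markers had a lower mean log2 value in KO. Most of the inner cell mass sum was *POU5F1*, at 773 to 1693 TPM in WT and 1352 to 2142 TPM in KO. The paper states that *POU5F1* and *CDX2* do not exclude each other in bovine blastocysts. Mean levels in WT and KO were 41.9 and 24.0 TPM for *SOX2*, 87.0 and 21.5 TPM for *NANOG* and 35.5 and 45.5 TPM for *LIN28A*. All of these inner cell mass markers overlapped between the genotypes. The leukocyte marker *PTPRC* and the red blood cell marker *HBB* were listed at 0 in all libraries, and the other red blood cell marker was at 54.1 to 172 TPM in WT and 62.0 to 314 TPM in KO. The 6 leukocyte markers summed to 2.63 to 4.69 TPM in WT and 3.02 to 7.81 TPM in KO. Of 8 cumulus or granulosa cell markers, 3 were above 0 in every library. The sum of all 8 ranged from 127 to 235 TPM in WT and from 11.4 to 252 TPM in KO. Nearly all of it came from *HSD3B1*, at 105 to 220 TPM in WT and 8.32 to 227 TPM in KO, and *FSHR*, at 12.1 to 26.8 and 1.36 to 23.3 TPM. *CYP19A1* reached 3.05 TPM at most, and the remaining markers stayed below that. The part of these genes in the values below was not tested.

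The 9 blastocysts held the machinery for an interferon response at very unequal levels. Among the 38 genes, 12 were above 1 TPM in every library, 13 were below 1 TPM in every library, and 6 were listed at 0 in 5 or more libraries. The genes above 1 TPM throughout were the receptor genes *IFNGR1* and *IFNAR1*, the kinase gene *TYK2*, the factors *IRF7*, *IRF3*, *IRF1*, *IRF9* and *STAT2*, and the response genes *IFITM3*, *IFI35*, *SAMHD1* and *USP18*. The genes below 1 TPM throughout included the receptor gene *IFNAR2*, the sensors *IFIH1*, *STING1* and *TLR3*, and the response genes *OAS2*, *IFI44*, *IFI44L*, *RSAD2*, *IFIT2*, *IFIT3*, *IFIT5* and *ISG20*.

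**Figure D1:**
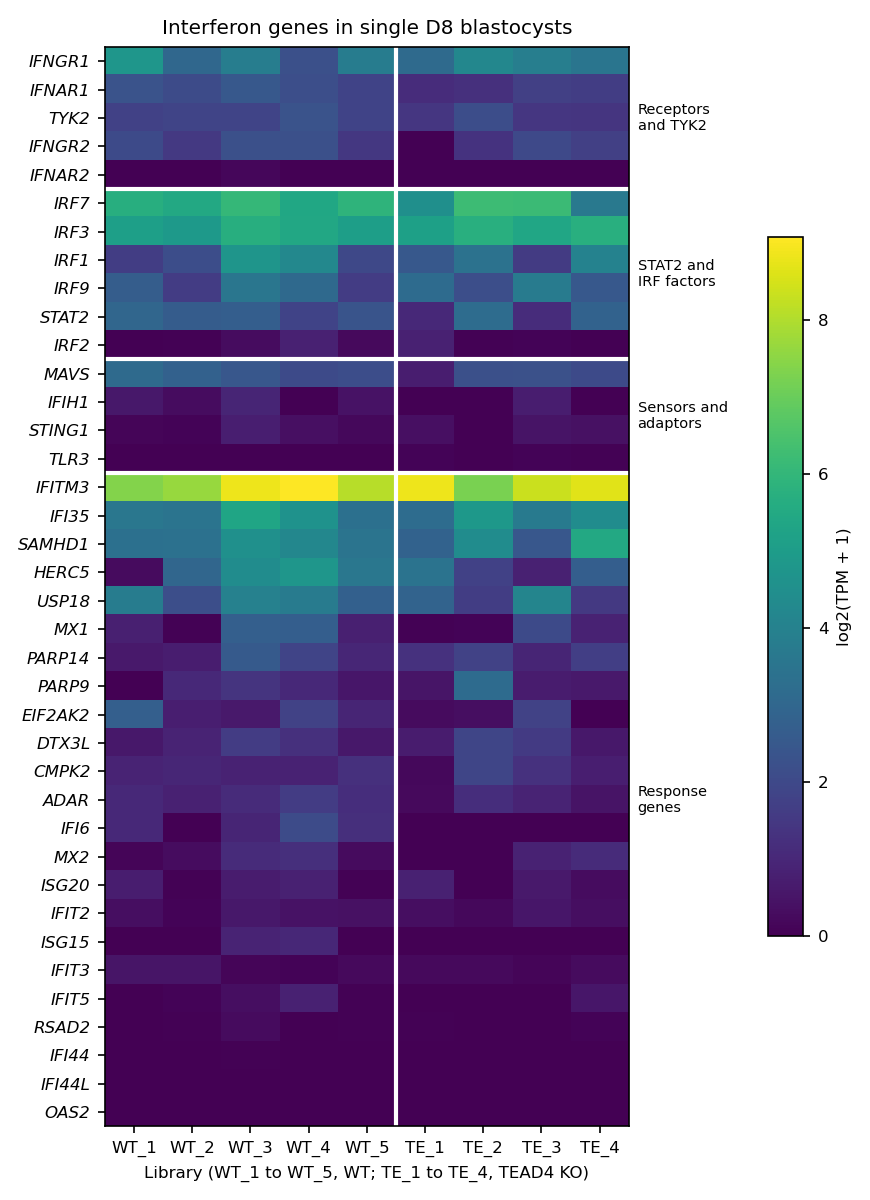
Level of 38 interferon genes, as log2(TPM + 1), in each of the 9 libraries, with WT to the left and KO to the right of the vertical line and the genes of each group ordered by their mean TPM. *IFITM3* is the brightest row in every embryo, *IRF7* and *IRF3* follow by mean level, and the lowest rows of the response genes are at or near 0 in both genotypes.

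WT and KO blastocysts were compared with limma on log2(TPM + 1) over all genes with a median above 0.1 TPM, and log2 fold changes are KO minus WT on that scale, which understates changes of low genes. A median above 0.1 TPM was reached by 28 of the 38 genes. No interferon gene passed an adjusted p-value of 0.05, which 0.0205% of the 14599 genes tested passed. These are fewer genes than the paper reports from DESeq2 on counts, at the same adjusted p-value and with a fold change limit as well. The smallest adjusted p-value of a member was 0.743 (limma). Of the 28 genes, 1 (3.57%), *IFNAR1*, had an unadjusted p-value under 0.05, against 5.9% of all genes tested. It was lower in KO, as were 3.83% of all genes tested at that threshold. KO embryos lay below every WT embryo in 1 of the 28 genes, again *IFNAR1*, against 1.23% of all genes, and above every WT embryo in none, against 0.801%. The mean log2 value was lower in KO in 18 of the 28 genes (64.3%) and in 8150 of all genes tested (55.8%). The median log2 fold change was −0.079 over the 28 genes and −0.046 over all genes. After scaling by median-of-ratios size factors the mean was lower in KO in 16 of the 28 genes and in 50.7% of all genes, and after quantile normalization in 16 of the 28 and in 47.8%. Over all genes with an unadjusted p-value under 0.05, the split was 559 lower and 302 higher in KO, and it was 523 and 433 with size factors and 471 and 533 after quantile normalization.

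**Figure D2:**
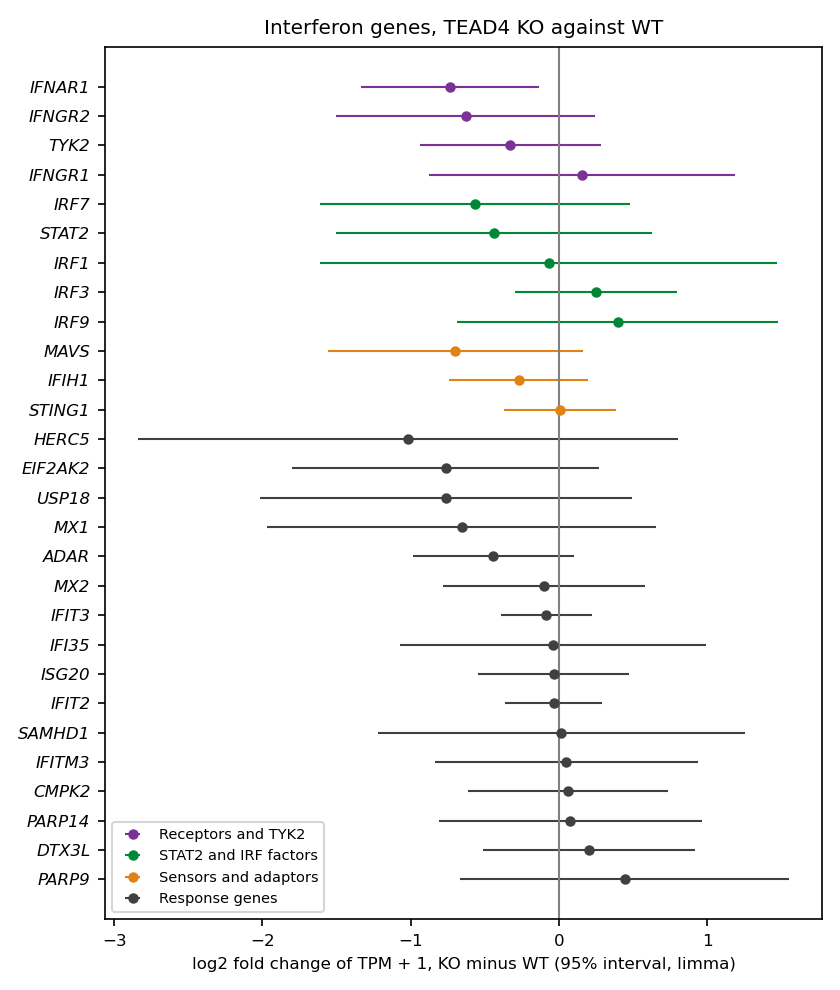
Log2 fold change of TPM + 1 (KO minus WT) of the 28 interferon genes tested, with its 95% interval from limma, unadjusted for the number of genes, in 4 colours for the groups of genes. The interval of *IFNAR1*, from −1.34 to −0.14, lies below 0, and the intervals of the other genes include 0.

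*IFNAR1* codes for the receptor chain shared by all type I interferons, interferon tau included. It was at 4.01, 3.20, 4.68, 3.54 and 2.57 TPM across WT_1 to WT_5, with 1.25, 1.40, 2.30 and 2.11 TPM across TE_1 to TE_4. The KO values all lay under the WT values, with WT_5 and TE_3 nearest to each other. Mean levels were 3.60 ± 0.801 TPM among WT (SD, n = 5) and 1.76 ± 0.518 TPM among KO embryos (SD, n = 4). The log2 fold change was −0.74, with an SE of 0.27 and a 95% interval from −1.34 to −0.14. An exact permutation test (126 splits) gave p = 0.0159 (two-sided), and limma gave an unadjusted p of 0.0202 and an adjusted p of 0.743. The log2 fold change was between −0.83 and −0.64 when any single embryo was omitted. With array weights the log2 fold change was −0.56 and the unadjusted p 0.0824 (limma). The hypoblast marker *GATA4* had a like pattern, at 1.09 to 1.75 TPM in WT and 0.367 to 0.957 TPM in KO. Its log2 fold change was −0.59 with an SE of 0.20 (limma adjusted p = 0.684). The other hypoblast markers, *SOX17*, *GATA6* and *PDGFRA*, overlapped between the genotypes. The part of *GATA4* in the *IFNAR1* values was not tested.

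The other receptor genes overlapped between the genotypes. *IFNAR2*, the partner chain that type I interferons need, was at 0.119 TPM in WT_3 and was listed at 0 in the other 8 libraries, so it was not tested. *IFNGR1*, the ligand-binding chain of the interferon gamma receptor, had the highest mean level of the receptor genes. It was at 26.4, 7.09, 13.3, 3.59 and 13.1 TPM across WT_1 to WT_5, with 7.72, 17.2, 13.8 and 10.5 TPM across TE_1 to TE_4. The WT embryos spanned the range of the KO embryos (log2 fold change 0.15 with an SE of 0.47, limma adjusted p = 0.988), and the sign turned without WT_4 (−0.18) or TE_2 (−0.018).

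*IFNGR2*, the second chain of that receptor, was at 3.16, 1.81, 3.69, 3.62 and 1.76 TPM across WT_1 to WT_5, while TE_1 was listed at 0 and TE_2 to TE_4 were at 1.50, 2.97 and 2.32 TPM. TE_1 and TE_2 were below all WT embryos, and TE_3 and TE_4 were within their range (log2 fold change −0.63 with an SE of 0.40, limma adjusted p = 0.911). It was −0.21 without TE_1, the embryo at 0, and −0.34 with array weights. *TYK2*, the kinase bound to IFNAR1, was at 2.42, 2.64, 2.66, 4.05 and 2.52 TPM across WT_1 to WT_5, with 1.74, 3.40, 1.68 and 1.64 TPM across TE_1 to TE_4. TE_1, TE_3 and TE_4 lay under the whole WT range, and TE_2 exceeded all WT embryos but WT_4 (log2 fold change −0.33 with an SE of 0.28, limma adjusted p = 0.953). With single embryos left out it lay between −0.51 (without TE_2) and −0.23 (without WT_4).

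In the RefSeq annotation of ARS-UCD2.0, *IFNGR2*, *IFNAR1*, *IL10RB* and *IFNAR2* are neighbours in this order. Their levels differed widely. *IL10RB*, a chain shared by the receptors of interleukin 10 and of lambda interferons, had means of 39.2 ± 12.5 TPM among WT (SD, n = 5) and 32.0 ± 10.6 TPM among KO embryos (SD, n = 4), a log2 fold change of −0.28 with an SE of 0.31. Between *IL10RB* and *IFNAR2*, which adjoin each other, the mean levels over WT embryos were thus 39.2 TPM and 0.024 TPM. The annotation behind the deposited values is not given in the sources used here, so *IFNAR2* mRNA is not shown to be absent.

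**Figure D3:**
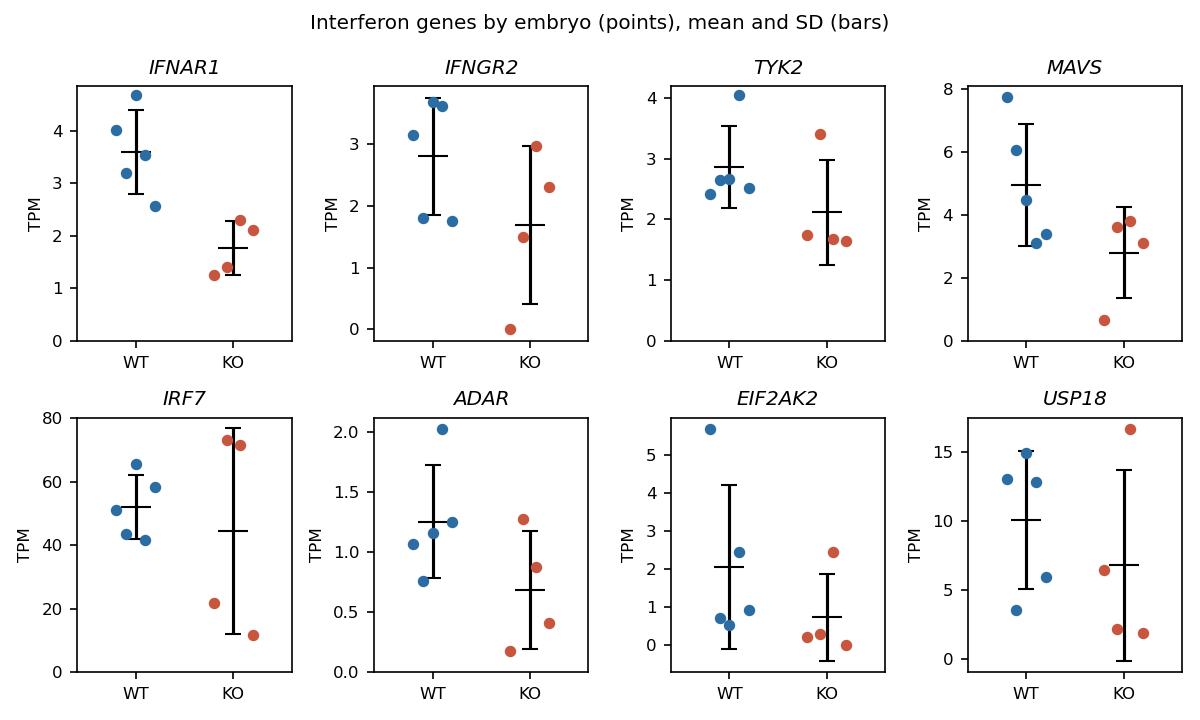
TPM of 8 interferon genes in each of the 5 WT (blue) and 4 KO (red) blastocysts, with the mean and SD of each genotype as bars; the vertical axes differ between panels. Points of WT and KO are apart for *IFNAR1* and mix in the other 7 panels.

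Among the factors, *IRF7* and *IRF3*, which drive transcription of interferon genes, had the highest levels. *IRF7* was at 51.1, 43.5, 65.6, 41.7 and 58.4 TPM across WT_1 to WT_5, with 22.0, 73.1, 71.5 and 11.6 TPM across TE_1 to TE_4. The KO embryos fell on both sides of the WT range, TE_2 and TE_3 above it and TE_1 and TE_4 below it. The SD was 10.1 TPM in WT and 32.3 TPM in KO around means of 52.1 and 44.6 TPM (log2 fold change −0.57 with an SE of 0.48, limma adjusted p = 0.953). That difference rested on single KO embryos, since it was −0.072 without TE_4, −0.36 without TE_1, −0.91 without TE_3 and −0.92 without TE_2. *IRF3* was at 33.5, 28.7, 51.0, 42.3 and 33.0 TPM across WT_1 to WT_5, with 34.4, 52.2, 40.7 and 51.6 TPM across TE_1 to TE_4. It varied least of the tested factors, by 1.82 times between its lowest and highest embryo (log2 fold change 0.25 with an SE of 0.25, limma adjusted p = 0.968).

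*STAT2*, the STAT protein particular to type I and lambda interferon signalling, was at 7.07, 5.31, 5.53, 2.54 and 4.08 TPM across WT_1 to WT_5, with 1.06, 8.34, 1.25 and 6.18 TPM across TE_1 to TE_4. TE_1 and TE_3 were below the WT range, TE_2 above it and TE_4 within it (log2 fold change −0.44 with an SE of 0.49, limma adjusted p = 0.971). It was −0.097 without TE_1, −0.14 without TE_3, −0.70 without TE_4 and −0.82 without TE_2. *IRF9*, the DNA-binding partner of STAT2, was between 2.03 and 10.9 TPM in WT and between 3.50 and 12.9 TPM in KO (log2 fold change 0.40 with an SE of 0.50), a difference of 0.10 without TE_3 and 0.89 with array weights.

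*IRF1*, an activator induced above all by interferon gamma, was at 2.10, 3.48, 25.6, 17.8 and 2.95 TPM across WT_1 to WT_5, with 4.66, 9.60, 2.00 and 15.2 TPM across TE_1 to TE_4. WT_3, WT_4 and TE_4 were high, and the others were below 10 TPM. Its 12.8-fold range over the embryos was the widest among the genes above 1 TPM in every library, against a log2 fold change of −0.071 between the genotypes (SE 0.71, limma adjusted p = 0.994). That sign turned with array weights and without WT_3, WT_4, TE_1 or TE_3. *IRF2*, which opposes IRF1 at the same sites, was below 1 TPM throughout and was not tested.

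Of the 4 sensors and adaptors of foreign nucleic acid, 3 were below 1 TPM in every library. *MAVS*, the mitochondrial adaptor of the RNA sensors, was above 1 TPM in all embryos but TE_1, at 7.73, 6.07, 4.48, 3.09 and 3.38 TPM across WT_1 to WT_5, with 0.672, 3.60, 3.82 and 3.11 TPM across TE_1 to TE_4. TE_1 lay below all other embryos, while TE_2, TE_3 and TE_4 lay within the WT range (log2 fold change −0.70 with an SE of 0.39, limma adjusted p = 0.891, and −0.34 without TE_1). *IFIH1*, which codes for the RNA sensor MDA5, was at 0.506, 0.226, 0.902, 0.011 and 0.376 TPM across WT_1 to WT_5. TE_3 was at 0.638 and TE_4 at 0.021 TPM, and TE_1 and TE_2 were listed at 0 (log2 fold change −0.27 with an SE of 0.21, limma adjusted p = 0.939). With single embryos left out it lay between −0.45 (without TE_3) and −0.15 (without WT_3).

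*STING1*, the adaptor of cytosolic DNA sensing, was at 0.087, 0.075, 0.679, 0.294 and 0.152 TPM across WT_1 to WT_5. The KO libraries TE_1, TE_3 and TE_4 had 0.282, 0.398 and 0.340 TPM, and TE_2 was listed at 0. Both genotypes stayed below 1 TPM (log2 fold change 0.007 with an SE of 0.17, limma adjusted p = 0.998). The endosomal RNA receptor gene *TLR3* reached at most 0.076 TPM, in TE_3.

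Response genes fell into a few that were well above 1 TPM and a majority that was not. *IFITM3*, which codes for a membrane protein that blocks entry of viruses, was the most abundant of the 38 genes, at 167, 202, 464, 540 and 276 TPM across WT_1 to WT_5, with 455, 152, 322 and 405 TPM across TE_1 to TE_4. Both genotypes held high and low embryos, with means of 330 ± 164 TPM among WT (SD, n = 5) and 333 ± 133 TPM among KO embryos (SD, n = 4). The log2 fold change was 0.050 (95% interval −0.84 to 0.94, limma adjusted p = 0.994) and turned to −0.029 after quantile normalization.

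*IFI35*, an interferon-induced partner of NMI, was at 11.1, 10.2, 39.6, 23.6 and 9.27 TPM across WT_1 to WT_5, with 8.21, 28.0, 12.0 and 20.3 TPM across TE_1 to TE_4. WT_3, TE_2, WT_4 and TE_4 were the high embryos in that order (log2 fold change −0.040 with an SE of 0.47, limma adjusted p = 0.996; 0.33 with array weights). *SAMHD1*, which hydrolyses deoxynucleotides and restricts retroviruses, was at 9.17, 9.53, 22.3, 17.6 and 10.2 TPM across WT_1 to WT_5, with 6.23, 20.5, 4.58 and 43.8 TPM across TE_1 to TE_4. TE_4 was the highest embryo and TE_3 the lowest, so the KO embryos spanned the WT range (log2 fold change 0.015 with an SE of 0.57, limma adjusted p = 0.998). Without TE_4 it was −0.54.

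The ISG15 system conjugates the ubiquitin-like protein ISG15 to targets through the ligase HERC5 and removes it through USP18, which also dampens signalling at the type I receptor. *ISG15* itself was at 0.856 TPM in WT_3 and 1.01 TPM in WT_4 and was listed at 0 in the other 7 libraries. *USP18* was at 13.0, 3.54, 14.9, 12.8 and 5.96 TPM across WT_1 to WT_5, with 6.41, 2.17, 16.6 and 1.85 TPM across TE_1 to TE_4. TE_3 had the highest value and TE_2 and TE_4 the lowest (log2 fold change −0.76, 95% interval −2.01 to 0.49, limma adjusted p = 0.935). It was −1.29 without TE_3, −0.42 without TE_4, −0.47 without TE_2 and −0.40 with array weights. *HERC5*, described here after its values were seen, was at 0.203, 6.90, 20.2, 26.5 and 11.1 TPM across WT_1 to WT_5, with 9.96, 2.36, 0.772 and 5.54 TPM across TE_1 to TE_4. It had the largest fitted difference of the 28 genes, with a log2 fold change of −1.02, and also the largest standard error, 0.83 (limma adjusted p = 0.944). WT_1 was the lowest of all embryos, and without it the log2 fold change was −1.76, whereas it was −0.57 without TE_3. The ligase and the protease thus differed in their pattern: WT_1 and TE_3 were high for *USP18* and lowest for *HERC5*, while the modifier was above 0 in a pair of WT embryos.

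Genes of RNA-directed defence were low and overlapped. *EIF2AK2*, which codes for the kinase PKR that stops translation on double-stranded RNA, was at 5.68, 0.708, 0.523, 2.44 and 0.917 TPM across WT_1 to WT_5. TE_1 to TE_3 were at 0.207, 0.277 and 2.45 TPM and TE_4 was listed at 0. TE_1, TE_2 and TE_4 lay under the whole WT range, and TE_3 exceeded all WT embryos but WT_1 (log2 fold change −0.77 with an SE of 0.47, limma adjusted p = 0.905). It was −1.16 without TE_3, −0.42 without WT_1 and −0.45 with array weights. *ADAR*, which edits adenosine in double-stranded RNA, was at 1.07, 0.763, 1.16, 2.03 and 1.26 TPM across WT_1 to WT_5, with 0.182, 1.28, 0.877 and 0.408 TPM across TE_1 to TE_4. TE_1 and TE_4 were below the WT range and TE_2 and TE_3 within it (log2 fold change −0.44 with an SE of 0.25, limma adjusted p = 0.891, and −0.29 without TE_1).

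The dynamin-like GTPase gene *MX1*, also described after its values were seen, was at 5.65 and 5.56 TPM in WT_3 and WT_4 and at 3.11 TPM in TE_3, and below 1 TPM in the other 6 embryos (log2 fold change −0.66 with an SE of 0.60, limma adjusted p = 0.956, and −0.33 without WT_3, −1.08 without TE_3 or −0.18 with array weights). Its neighbour and paralogue *MX2* was highest in WT_4, at 1.31 TPM, and was listed at 0 in TE_1 and TE_2. Of the *IFIT* genes, whose proteins bind viral RNA, *IFIT2* reached 0.504 TPM, *IFIT3* 0.433 TPM and *IFIT5* 0.768 TPM at most. *OAS2*, which codes for a synthase of the activator of RNase L, and *IFI44L* were listed at 0 in all 9 libraries. *IFI44* was above 0 in WT_3 alone, at 0.028 TPM, and *RSAD2*, which codes for viperin, reached 0.199 TPM. How reads were shared between related genes of these families is not given in the sources used here.

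*IFI6*, which codes for a mitochondrial antiviral protein, was singled out after its values were seen. It was at 1.08, 0.918, 3.22 and 1.34 TPM in WT_1, WT_3, WT_4 and WT_5 and was listed at 0 in WT_2 and in all 4 KO libraries. Its median was 0, so it was not among the genes tested. With no filter on low values its unadjusted p was 0.0103 and its adjusted p 0.794 (limma). *IFI6* enters that fit through its WT values alone and was picked after they were seen, so this p-value is no support for a difference. Genes above 0 TPM numbered 14776 to 15375 in KO and 14807 to 16678 in WT libraries, and the part of this in the KO zeros was not tested.

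*PARP9*, *DTX3L* and *PARP14* adjoin each other in the RefSeq annotation, and the PARP9 and DTX3L proteins act as a complex. The annotated spans of *PARP9* and *DTX3L* overlap, so reads of either gene may have been given to the other. Among the 28 genes, *PARP9* had the largest fitted increase, a log2 fold change of 0.44 (SE 0.51, limma adjusted p = 0.971), with TE_2 at 7.95 TPM and every other embryo at or below 1.59 TPM. Without TE_2 it was −0.20. TE_2 was also the highest embryo for *DTX3L*, at 2.73 TPM, whereas WT_3 was the highest for *PARP14*, at 4.96 TPM. *CMPK2*, a nucleotide kinase gene next to *RSAD2*, was between 0.818 and 1.39 TPM in WT and between 0.141 and 2.77 TPM in KO. The exonuclease gene *ISG20* was below 1 TPM throughout.

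By group, the median log2 fold change was −0.48 over 4 receptor and kinase genes, −0.071 over 5 factors, −0.27 over 3 sensors and adaptors and −0.039 over 16 response genes, with −0.046 over all genes tested. The mean was lower in KO in 3 of 4, 3 of 5, 2 of 3 and 10 of 16 genes, against 55.8% of all genes tested. None of the 16 response genes had an unadjusted p-value under 0.05 (limma), against 5.9% of all genes tested. So few genes cannot set that count apart from this share.

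Single embryos of both genotypes were highest or lowest for several of the genes. WT_3 was the highest embryo for 9 of the 28 tested genes, TE_2 for 6 and WT_4 for 5, and TE_1 was the lowest for 7. These ranks were not counted over all genes tested, so they are not shown to be particular to the interferon genes. WT_3 also had the most genes above 0 TPM of all libraries (16678) and TE_1 the fewest (14776). Without *IFITM3*, the TPM of the other 22 response genes with a row summed to 45.4, 36.1, 118, 104 and 44.9 in WT_1 to WT_5 and to 35.1, 70.8, 47.2 and 79.0 in TE_1 to TE_4. The sums of WT_3 and WT_4 stood above the rest, and all KO sums were within the WT range except that of TE_1, just under it.

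Of the interferon genes looked up, those for interferon tau had the highest TPM. *IFNT*, *IFNT2*, *IFNT3* and *IFN-TAU* are closely related genes, and how far reads were shared among them was not measured, so their TPM were summed. The sum was 542, 27.2, 730, 433 and 204 TPM across WT_1 to WT_5 and 155, 340, 995 and 101 TPM in TE_1 to TE_4. WT_2 was the lowest embryo and TE_3 the highest, so the groups overlapped (mean 387 ± 277 TPM among WT, SD, n = 5, and 398 ± 411 TPM among KO, SD, n = 4, exact permutation test on log2(TPM + 1), two-sided, p = 0.921). Of the other interferon genes with a row, *IFNB3*, *IFNK* and *IFNL3* were below 2 TPM in every library, and *IFNE*, *IFNG* and *IFNL1* were listed at 0 in all. *IFNB1*, *IFNB2* and *IFNW1* have no row under those symbols, and interferon alpha genes were not looked up.

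**Figure D4:**
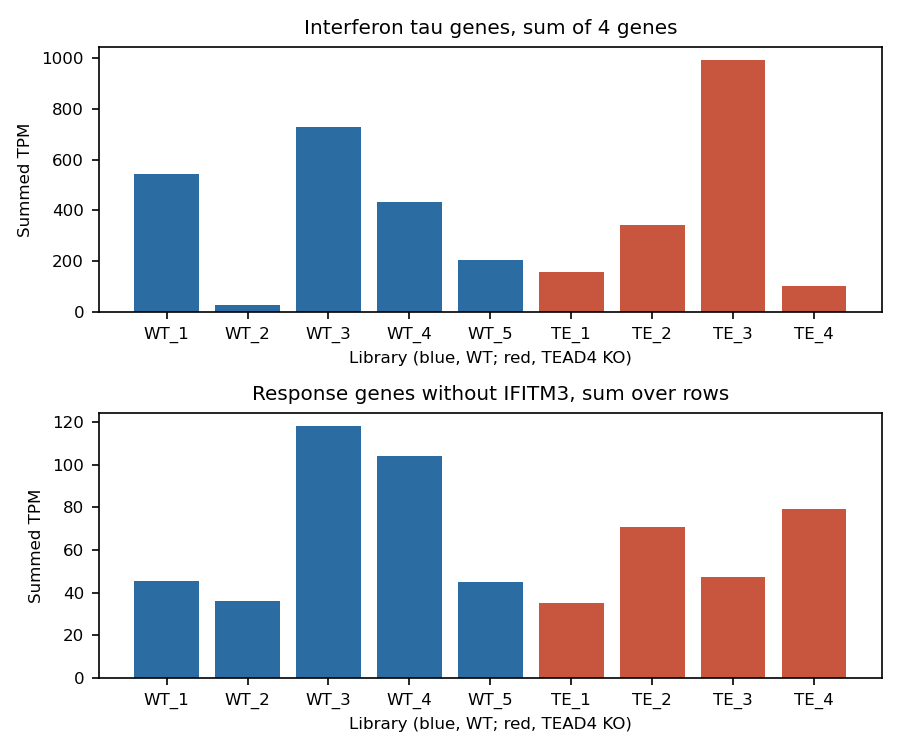
Summed TPM in each library of 4 interferon tau genes (top) and of 22 response genes without *IFITM3* (bottom), with WT in blue and KO in red. Interferon tau is highest in TE_3 and lowest in WT_2, and the response genes are highest in WT_3 and WT_4.

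Beyond the 39 genes, 65 further genes of the pathway were listed, of which 57 had a row and 40 were tested. None passed an adjusted p-value of 0.05, and 1 of the 40 (2.5%) had an unadjusted p-value under 0.05, against 5.9% of all genes tested. The mean was lower in KO for 27 of the 40 (67.5%), against 55.8% of all genes, namely 2 of 4 ligands, 4 of 4 receptors and kinases, 3 of 4 factors, 7 of 9 sensors and adaptors, 3 of 4 inhibitors and 8 of 15 further response genes. The gene under 0.05 was *IFI30*, an interferon gamma-inducible lysosomal reductase, at 82.7, 179, 43.5, 58.9 and 90.4 TPM across WT_1 to WT_5, with 48.6, 17.6, 50.0 and 6.62 TPM across TE_1 to TE_4. TE_1 and TE_3 overlapped WT_3 (log2 fold change −1.74 with an SE of 0.56, limma adjusted p = 0.643; exact permutation test, two-sided, p = 0.0317). *JAK1*, the kinase bound to IFNAR2, had means of 6.37 ± 1.30 TPM among WT (SD, n = 5) and 4.73 ± 2.06 TPM among KO embryos (SD, n = 4) (limma adjusted p = 0.941). *SOCS1*, an inhibitor of JAK kinases, averaged 25.1 ± 19.5 TPM among WT (SD, n = 5) and 23.7 ± 9.27 TPM among KO embryos (SD, n = 4) (limma adjusted p = 0.987).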

How the data were processed

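The authors pseudoaligned quality-filtered reads of 5 WT and 4 KO blastocysts, and deposited their TPM, which sum to 1000000 in each library, for 21512 genes. The submitters' processing notes name FastQC, fastp and kallisto without versions. The annotation and build are not given in the sources used here, and the labels and the paper's methods name different extraction and library kits. All 9 columns were used and assigned to a genotype by name. TPM keeps no read counts, so the depth behind a value is unknown, no interval for counting error is given, and DESeq2, which the study used on counts, was not run.

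For log2(TPM + 1) of the 14599 genes whose median exceeded 0.1 TPM, linear models with a mean-variance trend were fitted (limma 3.58.1, R 4.3.3), p-values were adjusted over all of them (Benjamini-Hochberg), and the code was tested on simulated data. Single genes were compared by exact permutation over 126 splits (smallest p 0.00794). The members and lists were chosen with earlier results of these data known. Values in every library are given for the 3 smallest p-values and 2 highest levels in each group of genes, members without overlap, the 2 widest ranges above 1 TPM in every library, and pathway genes with an unadjusted p under 0.05. *IFNAR2*, *ISG15*, *IFI44*, *HERC5*, *IFI6* and, in part, *MX1* and *PARP9* were added after their values were seen. Gene order and names come from the RefSeq table of ARS-UCD2.0, which lists 37 of the 39 symbols. No coordinates or promoter sequences are given, and a planned promoter search was not run. Python 3.11.15, numpy 2.4.6, pandas 2.3.3, scipy 1.17.1 and matplotlib 3.10.9 were used.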

Additional observations from a re-analysis of the deposited data

Results flagged for a closer look

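In 34 groups of 4 or 5 embryos (17 genes in 2 genotypes), the embryo at one end was checked for its distance from the next. By that check 4 stood apart. They were *TYK2* in WT_4 (4.05 TPM) and in TE_2 (3.40 TPM), *MAVS* in TE_1 (0.672 TPM) and *IFIH1* in TE_3 (0.638 TPM). The gap to the nearest embryo was 0.823, 0.928, 0.849 and 0.959 of the whole range of its genotype on log2(TPM + 1). Each of the 3 KO values belongs to a different embryo, and the cause was not tested.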

How the results depend on the processing

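No member passed an adjusted p-value of 0.05 in the fit reported or in any of 16 alternatives (limma), while 1 to 5 had an unadjusted p-value under 0.05 when an embryo was left out, 2 with no filter on low values and 0 with array weights. The highest count, without TE_3, includes *IFI6*, which is at 0 in all KO libraries and entered that fit through its WT values. Of the 28 genes tested in the fit reported, 1 to 4 were under 0.05 (4 without TE_3, 2 without TE_2 or WT_1), against 7.34% of all genes without TE_3, 8.42% without TE_2 and 6.12% without WT_1. With array weights the unadjusted p of *IFNAR1* was 0.0824, and its log2 fold change −0.56. When an embryo was left out, 1 or 2 members had no overlap between genotypes, against 2.36% to 5.66% of all genes, and the second was in each case a gene whose only overlapping embryo had been removed (*IFI6* without WT_2, *TYK2* without TE_2, *EIF2AK2* without TE_3). With an embryo left out, the median log2 fold change of the members was between −0.22 (without TE_2) and 0.018 (without WT_3). It was −0.19 with a pseudocount of 0.1 TPM and −0.33 over the 17 members with a median above 1 TPM.

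Over the whole table the number of genes past an adjusted p of 0.05 was 3, and it was 8 with a pseudocount of 0.1 TPM, 8 with a median above 1 TPM, 5 with size factors, 6 after quantile normalization, 5 without a trend and 0 to 10 when an embryo was left out (0 without WT_3, WT_4, TE_1, TE_2 or TE_4, 1 without WT_5, 10 without TE_3). Of the 17 genes given in every library, 11 kept their direction throughout. The others, between −0.071 and 0.15 in the fit reported, turned in some settings: *IFI35* to 0.011 with size factors, 0.013 after quantile normalization and 0.33 with array weights, *IFITM3* to −0.029 after quantile normalization, *IRF1* to 0.42 with array weights and *SAMHD1* to −0.017 with a pseudocount of 0.1 TPM. When an embryo was left out, the log2 fold change ranged from −0.049 to 0.12 for *STING1*, −0.18 to 0.46 for *IFNGR1*, −0.16 to 0.39 for *IFITM3*, −0.31 to 0.28 for *IFI35*, −0.45 to 0.37 for *IRF1* and −0.54 to 0.46 for *SAMHD1*. The cause was not tested. No paired analysis was run. Each library is a separate blastocyst, and the titles name no injection or fertilization session by which WT and KO embryos could be matched.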

Other observations

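The relation of each of the 28 tested members to the summed level of the 4 interferon tau genes was examined over the 9 embryos on log2(TPM + 1), a comparison chosen after the values were seen. Pearson's r was positive for 24 genes and negative for 4, with a median of 0.378. Over the 14595 genes tested, members included and interferon tau genes left out, r was positive for 60.1%, against 85.7% of the members, and its median was 0.0946. An r of 0.716 or more in size, the smallest with an unadjusted p under 0.05 among the members, was reached by 3 members (10.7%) and by 3.05% of those genes. This cutoff is the r of the member *IRF9* itself, which fixes the share of the members past it. All 28 relations also use the same 9 interferon tau values, so they are not independent of each other. The shares, those of positive r included, are therefore no test of a difference. None of the 28 relations passed adjustment by the Benjamini-Hochberg method, and 3 had an unadjusted p under 0.05 for Pearson's r and 4 for Spearman's rho (exact permutation tests, two-sided). *USP18* had r = 0.720 (exact permutation p = 0.0262, adjusted p = 0.262) and rho = 0.850 (exact permutation p = 0.00607, adjusted p = 0.170), and r = 0.664 without WT_2 and TE_4, the embryos farthest from the median interferon tau level. *IFIT2* had r = 0.763 (exact permutation p = 0.0164, adjusted p = 0.262) and rho = 0.800 (exact permutation p = 0.0138, adjusted p = 0.194), and r = 0.571 without those embryos, with *IFIT2* below 1 TPM throughout. At the other end, *IFIT3* had r = −0.564 (exact permutation p = 0.112, adjusted p = 0.484) and rho = −0.633 (exact permutation p = 0.0760, adjusted p = 0.321), and r = −0.159 without the same embryos.

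*IFN-tau-c1*, a further row for interferon tau that was not in the sum and was looked up after its values were seen, was between 0.217 and 9.15 TPM in WT and between 0.885 and 7.74 TPM in KO.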
